A study of Mus musculus with 8 samples.

Results

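*Aire*, *Fezf2* and the mRNAs of 7 proteins that act with AIRE were followed through RNA-Seq of a medullary thymic epithelial cell (mTEC) line before and after thymocyte adhesion. The 9 genes were taken by symbol (*Aire*, *Fezf2*, *Prkdc*, *Sirt1*, *Hipk2*, *Top1*, *Cdk9*, *Chd4* and *Crebbp*) from the 24052 gene symbols of the count files, and all 9 were listed. WT cells were the mouse line mTEC 3.10 (strain C57BL/6, passage 2, *Aire* wildtype). E6 cells were a single clone of that line edited in *Aire* exon 3 with Crispr-Cas9, also at passage 2. The sample labels give its genotype as Aire +/-, while the study describes indels in both alleles. Each cell type was sampled without thymocytes (before adhesion) and once thymocytes, added at 50 to each mTEC, had been left with it for 12 h (after adhesion). There were 2 replicate libraries of every condition, hence 8. The labelled culture time was 24 h in 3 libraries (WT after adhesion replicate 2, E6 before adhesion replicate 1 and E6 after adhesion replicate 1) and 12 h elsewhere. The thymocytes came from C57BL/6 mice. A protocol note on the E6 libraries without thymocytes speaks of co-culture, and their titles, which call them untreated, were followed.

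AIRE is a nuclear protein that turns on the transcription of many tissue-restricted antigens in mTECs, so that developing T cells meet them in the thymus, and Fezf2 is a transcription factor that controls another set of such antigens. AIRE does not act alone. It works with proteins that make or sense DNA breaks (topoisomerases and DNA-dependent protein kinase), with the elongation kinase that releases paused RNA polymerase II, and with chromatin remodelers and acetyltransferases, while other enzymes change the acetylation or phosphorylation of AIRE itself. The question of the study was whether thymocyte adhesion and *Aire* shape the mTEC transcriptome, and these genes encode the machinery on which *Aire* would act.

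*Aire* lies on the minus strand of mouse chromosome 10 from 78030022 to 78043610 (GRCm38, GENCODE vM21). The exon that was edited is shown because the E6 cells are defined by it. Exon 3 of transcript Aire-204, which has 14 exons, covers chr10:78042517-78042672 and 156 bases. Capitals mark the 4 places where CGG, the kind of PAM used, stands on either strand. The letters that the study prints for its guide RNA end directly before the last of them.
Aire exon 3: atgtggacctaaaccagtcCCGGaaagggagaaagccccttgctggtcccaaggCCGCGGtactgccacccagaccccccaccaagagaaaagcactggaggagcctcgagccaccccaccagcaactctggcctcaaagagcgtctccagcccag
The bases before the start of *Aire* and of *Sirt1*, the member whose mRNA differed between the cell types, are shown next from RefSeq on GRCm38.p6. The *Aire* stretch covers chr10:78043611-78043860 on the minus strand (250 bases). That of *Sirt1* covers chr10:63339051-63339285 on the minus strand, the 235 of its 250 bases that lie in no annotated exon. Capitals mark GGGCGG (GC box), CCAAT and TATAAA on either strand, and the first pair of GC boxes of *Sirt1* overlaps.
Aire: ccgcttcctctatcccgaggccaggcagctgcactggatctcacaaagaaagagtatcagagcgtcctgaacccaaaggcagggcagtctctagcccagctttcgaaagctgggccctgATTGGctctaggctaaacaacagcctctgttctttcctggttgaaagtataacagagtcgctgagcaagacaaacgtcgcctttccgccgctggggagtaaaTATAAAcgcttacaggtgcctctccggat
Sirt1: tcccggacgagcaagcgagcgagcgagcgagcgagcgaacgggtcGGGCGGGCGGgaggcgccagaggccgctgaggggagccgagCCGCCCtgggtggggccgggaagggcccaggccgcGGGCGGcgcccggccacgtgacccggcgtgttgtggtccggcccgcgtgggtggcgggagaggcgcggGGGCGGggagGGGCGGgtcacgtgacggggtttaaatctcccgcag
The 250 bases before *Aire* held 1 TATAAA, 1 CCAAT (as ATTGG) and no GGGCGG. Those before *Sirt1* held 6 GGGCGG and neither of the others, and those before *Fezf2* held 1 GGGCGG and neither of the others. Over 32851 RefSeq promoters of the same length, GGGCGG was present in 32.7%, CCAAT in 33.8% and TATAAA in 12.4%. CG dinucleotides numbered 11 before *Aire*, 14 before *Fezf2* and 39 before *Sirt1*, against a median of 6. RefSeq entries were matched for 8 of the 9 members, with *Prkdc* not matched. These matches describe letters and were not tested for use.

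Counts on genes ranged from 13506610 to 20145154 per library, and 3 counts corresponded to 0.149 to 0.222 CPM (counts relative to the library total). Such floors cover counting error only. Of the 24052 symbols, 11672 had enough counts for a test. Replicate 1 of WT after adhesion stood apart, with 66.7% of its alignments on genes against 75.7% to 78.8% elsewhere. Its log2 counts fell by 0.457 per 10% of GC content, whereas the other slopes lay between -0.023 and 0.132, so the members' results that moved most are given with and without it. Leaving it out also raised the share of all tested genes called, from 5.01% to 12.7% for E6 against WT before adhesion, from 8.91% to 15.6% after adhesion, and from 11.3% to 13.2% averaged. For adhesion the share rose from 1.89% to 4.23% averaged, from 0% to 1.74% in WT and from 2% to 5.41% in E6. Epithelial identity was checked with a list of markers. *Epcam* (571 CPM on average), *Krt8* (1760), *Krt14* (464) and *Foxn1* (12.9) were present, whereas *Psmb11* was at 0 counts throughout and *Krt5* (0.68 CPM) and *Cd80* (0.118 CPM) were near the floor.

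*Aire* and *Fezf2* were at or under the floor in every library. The *Aire* count was 0 and 0 in WT before adhesion, 0 and 3 in WT after adhesion, 0 and 0 in E6 before adhesion and 0 and 3 in E6 after adhesion (replicates 1 and 2). The 6 reads therefore came from replicate 2 of each condition after adhesion, and the cell types had the same numbers. Summed over 2 libraries, *Aire* after adhesion stood at 0.0853 CPM in WT (95% exact Poisson interval 0.0176 to 0.249) and at 0.0920 CPM in E6 (0.0190 to 0.269). Before adhesion a count of 0 allowed up to 0.123 CPM in WT and 0.110 CPM in E6, so the intervals of all 4 conditions overlapped. A difference in *Aire* by cell type or by adhesion was not detectable at this depth, and the counts cannot serve to check the genotype. The study's RT-qPCR still detected *Aire* mRNA in E6, at a lower level than in WT. It reported a rise after adhesion in both cell types.

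The *Fezf2* count was 0 in all 4 WT libraries, 0 and 0 in E6 before adhesion and 2 and 2 in E6 after adhesion. Its 4 reads thus fell in the same condition, where the summed level was 0.123 CPM (95% exact Poisson interval 0.0334 to 0.314), against an upper limit of 0.105 CPM in WT after adhesion. Neither library reached 3 counts, and no fold was computed. In an edgeR fit without the filter on low counts, which took in 15836 genes, neither gene was called in any contrast, and the lowest FDR was 0.729 for *Aire* and 0.31 for *Fezf2*. In comparison, *Hprt*, the reference gene of the study's RT-qPCR, had 1192 to 1986 counts per library. Per 10000 *Hprt* reads over all libraries there were 4.81 *Aire* reads and 3.21 *Fezf2* reads, with upper limits of 10.5 and 8.21.

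**Figure D1:**
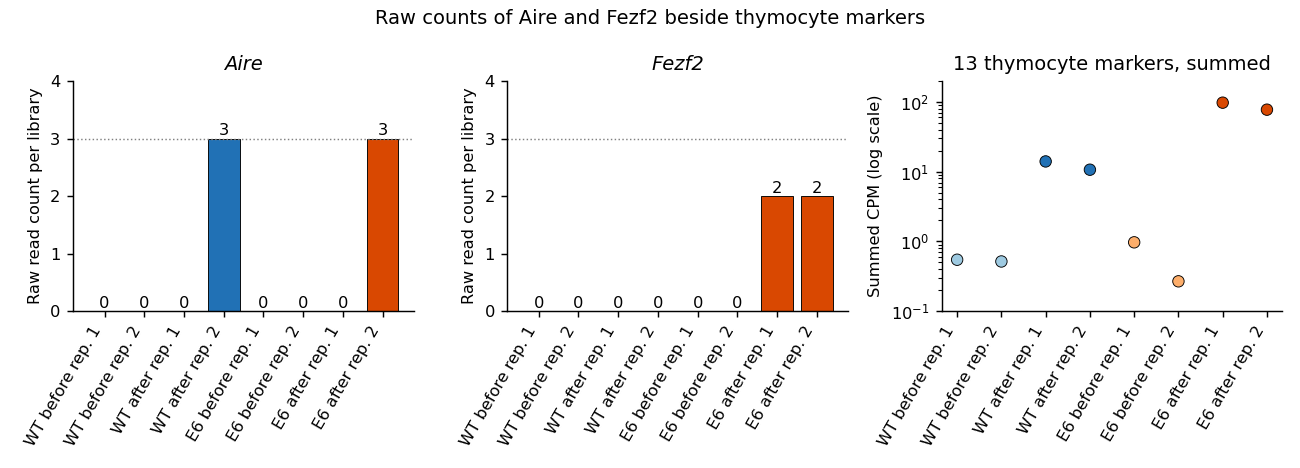
Raw read counts of *Aire* and *Fezf2* in each of the 8 libraries (left and middle, dotted line at 3 counts) and the summed CPM of 13 thymocyte markers on a log scale (right). The few *Aire* and *Fezf2* reads lie in libraries after adhesion, where the thymocyte markers sum to 10.7 to 97.9 CPM against 0.268 to 0.971 CPM before it.

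RNA of thymocytes was present in the libraries where these reads appeared. Markers of thymocytes that were analysed here (13 of the 21 listed, each with 3 or more counts in some library, the other 8 not being analysed here) summed to 0.516 to 0.546 CPM in WT before adhesion, 10.7 to 14.05 CPM in WT after adhesion, 0.268 to 0.971 CPM in E6 before adhesion and 77.7 to 97.9 CPM in E6 after adhesion. Markers of B cells and antigen-presenting cells, which can carry *Aire* mRNA, were in part higher there too. *Cd74*, the invariant chain of MHC class II, averaged 0.0304, 0.524, 2.26 and 6.04 CPM in the same order and *H2-Ab1*, an MHC class II chain, 0, 0.323, 0 and 1.26 CPM. *Ms4a1*, a B cell marker, had no counts. The list as a whole was not higher after adhesion, with mean sums of 62.4, 49.4, 50.6 and 49.8 CPM in the same order. Over the libraries it ranged from 41.0 to 66.0 CPM and was carried by *Csf1r*, a macrophage growth factor receptor (49.7 CPM on average). *Csf1r* went the other way, at 62.4, 47.8, 48.0 and 40.6 CPM. The *Aire* reads lay in replicate 2 after adhesion, where the thymocyte markers summed to 10.7 CPM in WT and 77.7 CPM in E6. In replicate 1, with 0 *Aire* reads, the sums were 14.05 and 97.9 CPM. Whether any *Aire* or *Fezf2* read came from cells other than mTECs was not tested.

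Reads were counted on some genes around these loci and not on others. *Pfkl*, the nearest listed gene on one side of *Aire*, had 1134 to 3050 counts per library and *Icosl*, on the other side, 6 to 17. *Dnmt3l*, on the opposite strand, shares 67 exonic bases with *Aire* and had 0 counts in all libraries. The listed neighbours of *Fezf2* were *3830406C13Rik*, with 289 to 510 counts, and *Cadps*, with 0. *Aire* and *Fezf2* were far from alone in this range, since 8216 of the symbols had no count in any library. Most of the listed products that depend on AIRE or Fezf2 were as scarce. Of 8 such antigens, 5 (*Ins2*, which encodes insulin, *Spt1*, *Mup4*, *Tff3* and *Fabp9*) were at 0 in all libraries. *Apob* and *Csn2* averaged 0.0152 and 0.0700 CPM. *Maoa*, a monoamine oxidase, was the 1 with enough counts for a test, at 92.2 CPM in WT and 73.0 CPM in E6. Its averaged log2 difference of -0.34 (SE 0.07, edgeR FDR = 0.0174) passed the FDR limit and not the FC limit.

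The other 7 members were expressed in every library and passed the filter on low counts. Scaled by TMM and per kilobase of exon, the level over all 8 libraries was highest for *Chd4* (78.7 ± 8.30 CPM per kb, SD, n = 8), followed by *Top1* (23.8 ± 9.91), *Cdk9* (19.5 ± 1.31), *Hipk2* (8.96 ± 2.37), *Crebbp* (6.17 ± 1.12), *Sirt1* (4.13 ± 1.21) and *Prkdc* (2.28 ± 0.167). The ranges of *Top1* and *Cdk9* overlapped, as did those of *Hipk2* and *Crebbp* and those of *Crebbp* and *Sirt1*. *Chd4* lay above all others in every library, and *Prkdc* (at most 2.48 CPM per kb) lay below the lowest *Sirt1* value (2.82). These per-length levels rest on the exons of all annotated isoforms.

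On the same per-length scale the members can be set beside their partners. *Prkdc*, the catalytic subunit of DNA-dependent protein kinase, stood well under *Xrcc5* (20.3 ± 2.59) and *Xrcc6* (22.9 ± 1.25), which encode the Ku subunits that bind DNA ends. *Cdk9*, the kinase of the elongation factor P-TEFb, stood above its cyclins *Ccnt1* (4.40 ± 1.57) and *Ccnt2* (3.10 ± 0.540). *Crebbp*, an acetyltransferase, was lower than its relative *Ep300* (11.5 ± 3.15), and *Top1* lay between *Top2a* (96.5 ± 16.4) and *Top2b* (11.4 ± 2.87). *Chd4*, the remodeling ATPase of the NuRD repressor complex, stood beside the NuRD subunits *Mta2* (67.7 ± 3.15), *Hdac1* (34.5 ± 2.45) and *Hdac2* (34.7 ± 9.0). No test was made of these levels between genes.

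**Figure D2:**
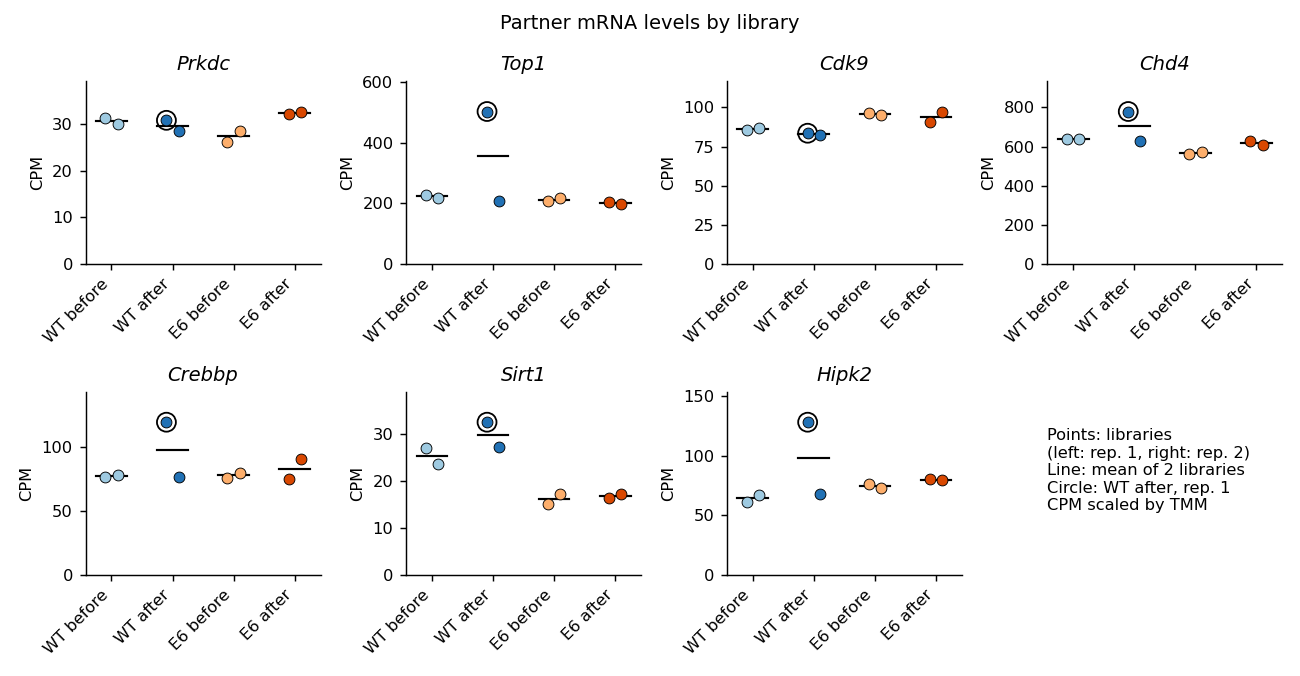
TMM-scaled CPM of the 7 counted members in each library, by condition, with the mean of 2 libraries as a line and WT after adhesion replicate 1 circled. The 4 E6 libraries of *Sirt1* (15.05 to 17.2 CPM) lie below the 4 WT libraries (23.7 to 32.6 CPM), and the circled library is the highest for *Top1*, *Hipk2*, *Crebbp*, *Chd4* and *Sirt1*.

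Comparing E6 with WT cells asked which transcripts differed between the mutant clone and its parent line. Averaged over before and after adhesion, 1 of the 7 tested members was a DE mRNA (edgeR quasi-likelihood test, FDR under 0.05 over all tested genes and an FC of at least 1.5), where 11.3% of all tested genes were. DE mRNAs among all tested genes were higher in E6 in 5.22% and lower in 6.13%. The median log2 FC was -0.12 over the members and -0.01 over all tested genes, and without WT after adhesion replicate 1 the members' median turned to 0.03. Culture times differ between the replicates of 3 of the 4 conditions, and nothing else states that replicates were separate cultures, so the p-values measure only the spread between these libraries, which may be in part technical.

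*Sirt1*, a deacetylase that removes acetyl groups from AIRE, was the DE mRNA. Its level was 27.0 and 23.7 CPM in WT before adhesion, 32.6 and 27.2 CPM in WT after adhesion, 15.05 and 17.1 CPM in E6 before adhesion and 16.4 and 17.2 CPM in E6 after adhesion. Every E6 library was lower than every WT library, a separation in either direction that 31.2% of all tested genes shared. The mean was 27.6 ± 3.68 CPM in WT and 16.5 ± 1.00 CPM in E6 (SD, n = 4 libraries each), and *Sirt1* fell by 0.74 on the log2 scale in E6 (SE 0.11, 95% interval -1.0 to -0.48, edgeR FDR = 0.00492). Without WT after adhesion replicate 1 the difference was -0.66 (SE 0.08, FDR = 7.2e-07). In these bulk samples, fewer cells that express a gene and less RNA per cell cannot be told apart.

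Taken at each state, the *Sirt1* difference was similar in size. Before adhesion it was -0.65 (SE 0.16, edgeR FDR = 0.0575) and did not pass the FDR limit, so that 0 members were DE mRNAs where 5.01% of all tested genes were. At an unadjusted p under 0.05 there was 1 member, *Sirt1*, where 21.6% of all tested genes passed, and DESeq2 called it too, as did edgeR without WT after adhesion replicate 1 (-0.65, FDR = 4.76e-05). After adhesion it was -0.83 (SE 0.16, edgeR FDR = 0.0222), which made 1 member a DE mRNA where 8.91% of all tested genes were. That call was lost when any 1 library other than the 2 of WT after adhesion was left out, with FDR values of 0.054 to 0.19 and differences of -0.86 to -0.79, and remained without replicate 1 of WT after adhesion (-0.66, FDR = 0.000203). The difference of the adhesion effects between E6 and WT was -0.17 for *Sirt1* (95% interval -0.69 to 0.34), and -0.01 (-0.36 to 0.33) without WT after adhesion replicate 1.

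*Sirt1* and *Aire* both lie on chromosome 10, and genes of that chromosome were lower as a group in E6. *Sirt1* is on the minus strand from 63319005 to 63381704. Over the 461 tested chromosome 10 genes whose mean log2 CPM reached 2, the median log2 FC of E6 against WT was -0.37, with 89.8% of the genes below 0, and over 9740 genes of all chromosomes it was -0.01. In single libraries the chromosome 10 median, relative to the WT mean, was -0.02 to 0.01 in WT and -0.36 to -0.32 in E6. Chromosome 10 genes took 5.27% to 5.66% of the counts in WT libraries and 4.21% to 4.32% in E6 libraries. *Sirt1* lay 0.38 below the chromosome 10 median on the log2 scale, and 59 of the 461 genes (12.8%) were lower still. Within 5 Mb on either side of *Sirt1*, 38 of 41 tested genes were below 0 with a median of -0.35, and 8 were DE mRNAs, all lower in E6. Over the 461 chromosome 10 genes, 94 (20.4%) were DE mRNAs, 89 of them lower, and over all chromosomes 9.37% were. The chromosome median was -0.34 without WT after adhesion replicate 1. The part of the chromosome in the *Sirt1* difference was not tested. On the chromosomes of the other tested members the medians were 0.02 (chromosome 2), -0.03 (chromosome 6) and 0.10 (chromosome 16).

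**Figure D3:**
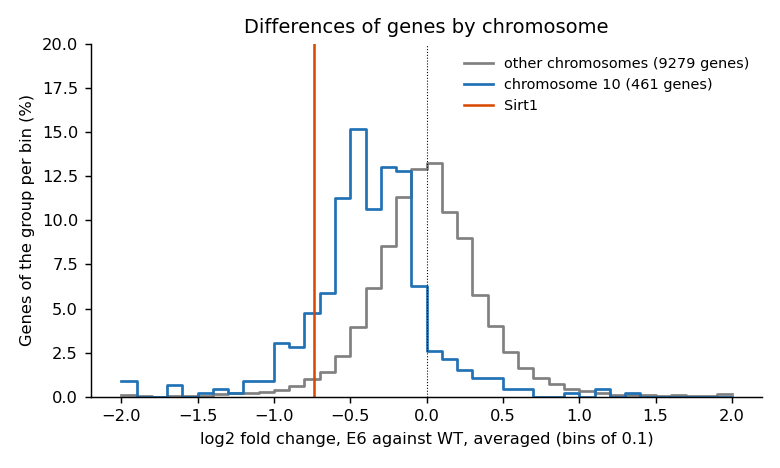
Distribution of the log2 fold change of E6 against WT, averaged over before and after adhesion, for 461 genes of chromosome 10 (blue) and for genes of the other chromosomes (grey), as the percentage of each group per bin of 0.1, with values beyond 2 placed in the end bins. The chromosome 10 genes centre on -0.37 and *Sirt1* (line) lies at -0.74, on their lower side.

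The DNA break partners did not pass the test. *Prkdc* was at 31.3 and 30.1 CPM in WT before adhesion, 30.8 and 28.5 CPM in WT after adhesion, 26.1 and 28.6 CPM in E6 before adhesion and 32.2 and 32.7 CPM in E6 after adhesion. Its E6 libraries lay under those of WT before adhesion and over them after adhesion. How many of all tested genes were apart in single states was not worked out. The averaged difference of *Prkdc* was -0.02 (SE 0.09, 95% interval -0.22 to 0.18). *Top1*, which relaxes DNA ahead of polymerases and is recruited by AIRE, was at 228 and 217 CPM in WT before adhesion, 502 and 208 CPM in WT after adhesion, 207 and 217 CPM in E6 before adhesion and 205 and 199 CPM in E6 after adhesion. A single library, WT after adhesion replicate 1, was high, and the other 7 lay between 199 and 228 CPM. The averaged difference of *Top1* was -0.44 (SE 0.24, edgeR FDR = 0.239) and became -0.04 (SE 0.04, 95% interval -0.13 to 0.05) without that library. After adhesion it was -0.82 (SE 0.35, FDR = 0.165) with that library and -0.01 (SE 0.07, FDR = 0.897) without it.

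*Cdk9* was lower in all 4 WT libraries than in the 4 E6 libraries, though by little, where 31.2% of all tested genes were apart in either direction. It was at 85.4 and 87.1 CPM in WT before adhesion, 83.5 and 82.3 CPM in WT after adhesion, 96.7 and 95.1 CPM in E6 before adhesion and 90.7 and 97.4 CPM in E6 after adhesion. The averaged difference was 0.17 on the log2 scale, a 1.12-fold level in E6 (SE 0.07, edgeR FDR = 0.138), short of both limits. It was 0.19 without WT after adhesion replicate 1 (SE 0.05, FDR = 0.00279), which passed the FDR limit and not the FC limit.

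The chromatin members differed by less than the limits as well. *Chd4* was at 637 and 636 CPM in WT before adhesion, 779 and 629 CPM in WT after adhesion, 561 and 570 CPM in E6 before adhesion and 628 and 608 CPM in E6 after adhesion. All its E6 libraries were lower than all its WT libraries, the closest pair by about 1 CPM, where 31.2% of all tested genes were apart. Its averaged difference was -0.18 (SE 0.09, edgeR FDR = 0.217), and -0.08 (SE 0.04, FDR = 0.068) without WT after adhesion replicate 1. *Crebbp* was at 76.4 and 77.7 CPM in WT before adhesion, 119 and 75.8 CPM in WT after adhesion, 75.5 and 79.2 CPM in E6 before adhesion and 74.9 and 90.1 CPM in E6 after adhesion. The groups overlapped, and the averaged difference of -0.12 (SE 0.15, edgeR FDR = 0.619) turned to 0.08 (SE 0.06, FDR = 0.265) without that library.

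*Hipk2*, a kinase that phosphorylates AIRE and the product of *Crebbp*, was at 61.0 and 67.1 CPM in WT before adhesion, 128 and 68.2 CPM in WT after adhesion, 76.2 and 72.7 CPM in E6 before adhesion and 80.1 and 79.5 CPM in E6 after adhesion. WT after adhesion replicate 1 was the highest library and the other 3 WT libraries were the lowest. With all libraries the averaged difference was -0.04 (SE 0.18, edgeR FDR = 0.908). Its direction turned without the high library, to 0.24 (SE 0.05, 95% interval 0.13 to 0.35, FDR = 0.000699), a 1.18-fold level in E6 that passed the FDR limit and stayed under the FC limit.

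**Figure D4:**
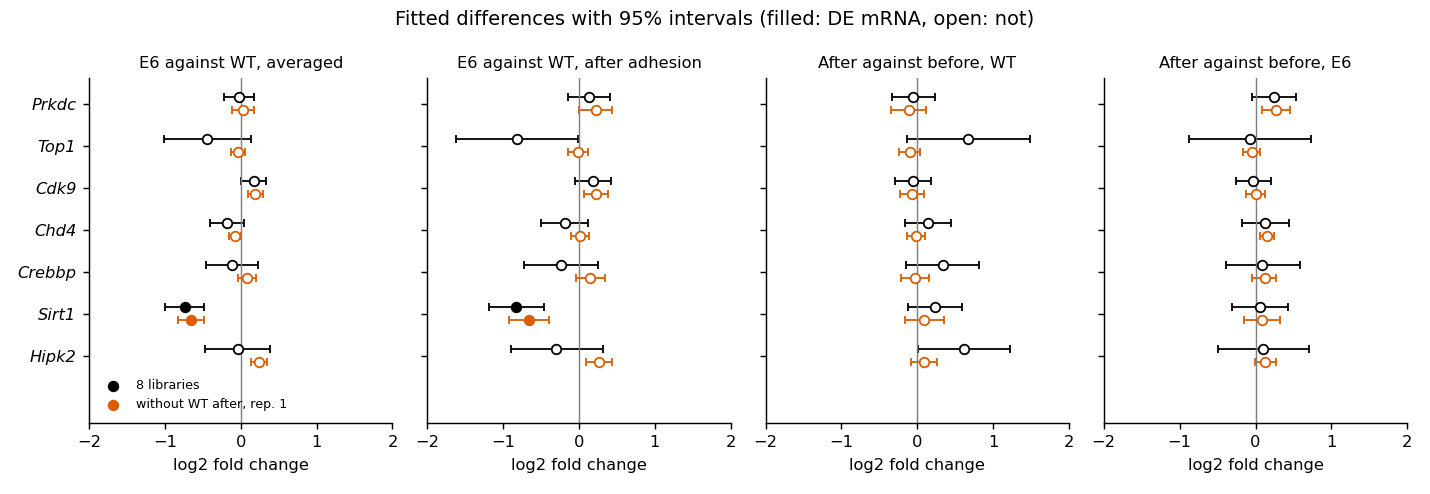
Log2 fold change of each counted member with its 95% interval in 4 contrasts, from all 8 libraries (black) and without WT after adhesion replicate 1 (orange), with DE mRNAs filled. *Sirt1* is filled in the averaged contrast of E6 against WT and in that after adhesion with either set of libraries, and the intervals of *Top1*, *Hipk2* and *Crebbp* narrow when the 1 library is left out.

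The second comparison asked whether thymocyte adhesion changed these mRNAs. Averaged over WT and E6, 0 of the 7 tested members were DE mRNAs by edgeR, where 1.89% of all tested genes were, 1.79% higher after adhesion and 0.103% lower. The count was also 0 at an unadjusted p under 0.05, where 9.89% of all tested genes passed, and 0 by DESeq2, where 2.89% did. The members' median log2 FC was 0.15 and that of all tested genes 0.00. It was 0.07 without WT after adhesion replicate 1. None had its libraries before and after adhesion fully apart, which held for 5.52% of all tested genes. The widest averaged value was that of *Hipk2*, 0.36 (SE 0.18, edgeR FDR = 0.595), and it was 0.11 (SE 0.05, FDR = 0.206) without WT after adhesion replicate 1.

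In WT cells no member was a DE mRNA by edgeR, where 0% of all tested genes were. At an unadjusted p under 0.05 there was 1 member, *Hipk2*, where 7.48% of all tested genes passed. DESeq2 called 0 members, where it called 0.557% of all tested genes. Adhesion in WT gave 0.67 for *Top1* (SE 0.34, 95% interval -0.13 to 1.48), 0.61 for *Hipk2* (SE 0.26, 0.01 to 1.22) and 0.34 for *Crebbp* (SE 0.21, -0.15 to 0.82), each with an edgeR FDR of 0.62. The same values were -0.10, 0.09 and -0.03 without WT after adhesion replicate 1. Without replicate 2 in its place all 3 were DE mRNAs, at 1.16, 0.99 and 0.62, in a fit that called 29.8% of all tested genes, so the result hung on which WT library after adhesion was kept. The log2 gap between both libraries, replicate 1 minus replicate 2, was 1.27 for *Top1*, 0.91 for *Hipk2*, 0.65 for *Crebbp*, 0.31 for *Chd4*, 0.26 for *Sirt1*, 0.11 for *Prkdc* and 0.02 for *Cdk9*, where 90% of tested genes lay between -1.23 and 1.03. Corrected for GC content, the gap was 0.88 for *Top1* (exons of 42.1% GC), 1.23 for *Hipk2* (53.5%) and 0.84 for *Crebbp* (51.7%).

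In E6 cells no member was a DE mRNA by edgeR either, where 2% of all tested genes were. The counts were also 0 at an unadjusted p under 0.05 (6.97% of all tested genes) and by DESeq2 (2.54%). *Prkdc* had the widest value, 0.25 (SE 0.12, 95% interval -0.04 to 0.53, edgeR FDR = 0.895). The other members lay between -0.07 (*Top1*) and 0.13 (*Chd4*). When WT after adhesion replicate 1 was left out, *Chd4* was at 0.15 (SE 0.05, edgeR FDR = 0.0336), past the FDR limit and under the FC limit. The difference of the adhesion effects between E6 and WT gave 0 DE mRNAs among the members by edgeR, where 0% of all tested genes passed. It likewise gave 0 at an unadjusted p under 0.05 (2.54% of all tested genes) and 0 by DESeq2 (0.0257%). Its intervals were wide, from -1.89 to 0.39 for *Top1* and from -1.37 to 0.34 for *Hipk2*. They ran from -0.12 to 0.23 and from -0.18 to 0.26 without WT after adhesion replicate 1. That fit gave *Prkdc* 0.38 (SE 0.14, edgeR FDR = 0.177), short of the limit.

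The wider set of AIRE partners and regulators was read in the same fits. It comprised 74 listed genes, the 7 counted members among them, and 61 had enough counts for a test. In E6 against WT, averaged, 3 (4.92%) were DE mRNAs, against 11.3% of all tested genes, with *Relb* higher and *Hexim1* and *Sirt1* lower, and the median log2 FC was -0.12. The DNA repair and topoisomerase partners had 0 of 13 (median -0.32, 5 at an unadjusted p under 0.05, where 35.3% of all tested genes passed), the elongation factors 1 of 10 (median -0.30), and the chromatin repressors and acetyltransferases 0 of 13 (median -0.12). Among enzymes that modify AIRE or its partners it was 1 of 6, *Sirt1* itself. It was 0 of 6 among splicing and RNA helicase partners, 0 of 6 among nuclear import factors, 1 of 6 among regulators of *Aire* transcription and 0 of 1 among antigens. Without WT after adhesion replicate 1 the medians of the first and second lists were -0.07 and -0.05, and 4 genes were called, in a fit that called 13.2% of all tested genes, with *Kpna1*, a nuclear import receptor, added.

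*Hexim1*, an inhibitor of P-TEFb and so of the *Cdk9* kinase, was at 33.2 and 36.8 CPM in WT before adhesion, 30.6 and 36.8 CPM in WT after adhesion, 21.9 and 26.7 CPM in E6 before adhesion and 17.8 and 23.2 CPM in E6 after adhesion. All its E6 libraries were lower than all its WT libraries, where 31.2% of all tested genes were apart in either direction. It fell by 0.62 on the log2 scale (SE 0.13, edgeR FDR = 0.0169), and without WT after adhesion replicate 1 by 0.66 (FDR = 1.75e-06). The call was lost without either library of WT or E6 before adhesion (FDR 0.0501 to 0.0854) and without E6 after adhesion replicate 1 (FDR 0.0792). Without WT after adhesion replicate 2 the difference, -0.53, was under the FC limit, as was that of -0.38 with only libraries of 12 h culture.

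*Relb*, an NF-kB subunit that mTEC development and *Aire* expression require, was higher in E6 and after adhesion. Its level was 2.61 and 3.69 CPM in WT before adhesion, 5.89 and 12.9 CPM in WT after adhesion, 9.71 and 7.18 CPM in E6 before adhesion and 20.8 and 20.85 CPM in E6 after adhesion. In each cell type the libraries after adhesion were above those before it. How many of all tested genes were apart in this way was not worked out. *Relb* was the 1 DE mRNA of 61 (1.64%) in the averaged adhesion contrast, where 1.89% of all tested genes were called and the lists' median was 0.04. It rose by 1.28 in E6 against WT (SE 0.26, edgeR FDR = 0.0155) and by 1.45 after adhesion (SE 0.26, FDR = 0.042). Without WT after adhesion replicate 1 these were 1.07 (FDR = 2.77e-07) and 1.69 (FDR = 3.09e-09), and *Nfkb2* was then also called for adhesion. The adhesion call was lost when any of the other libraries except WT after adhesion replicate 2 was left out (FDR 0.13 to 0.224, log2 FC 1.33 to 1.58). The call in E6 was lost in 5 of those 6 cases (FDR 0.054 to 0.0817, log2 FC 1.16 to 1.41). The thymocyte marker sums given above were also higher in the libraries after adhesion, and their part in *Relb* was not tested. *Tnfrsf11a* (RANK), *Cd40*, *Irf4*, *Irf8*, *Tbx21* and *Ctcfl* had too few counts for a test, at 0.00748 to 0.109 CPM on average. The other 5 tested regulators (*Ltbr*, *Nfkb2*, *Traf6*, *Map3k14* and *Prdm1*, at 2.79 to 137 CPM on average) were not called in either averaged contrast with all libraries.

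**Figure D5:**
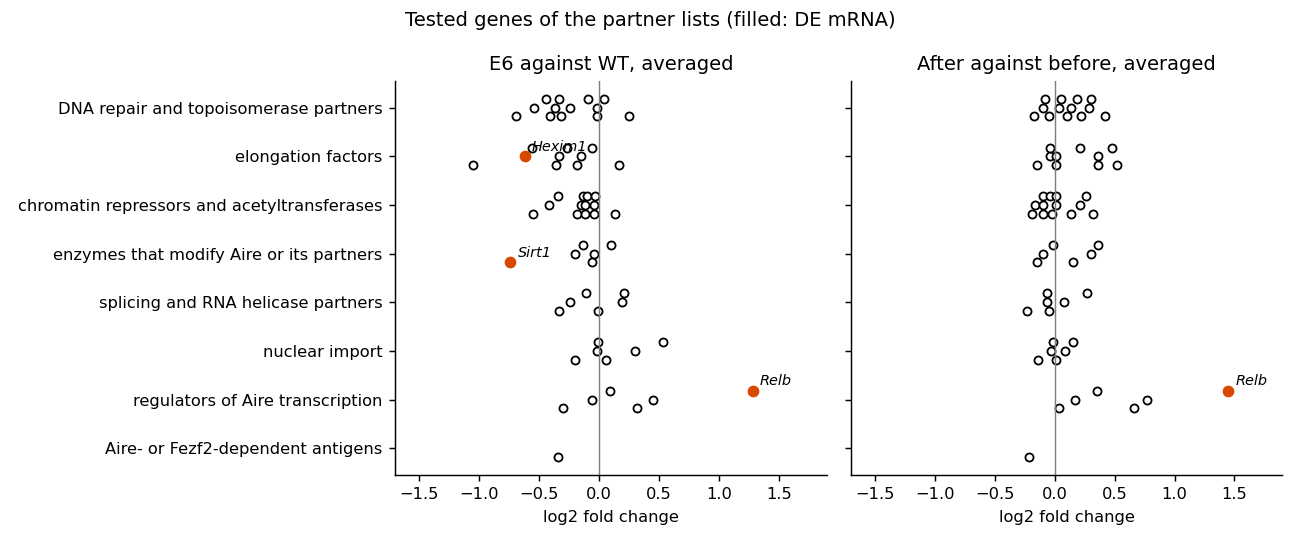
Log2 fold change of the 61 tested genes of the partner and regulator lists, for E6 against WT (left) and after against before adhesion (right), both averaged, with DE mRNAs filled and named. *Relb* is filled in both panels, *Sirt1* and *Hexim1* on the left.

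Genes whose pattern over the 8 libraries was nearest to that of a member were found by the root mean square difference of centred log2 CPM among 7778 well-counted genes. For *Sirt1* they were *Ttc21b* (0.0730) and *Lgr4* (0.0840), both on chromosome 2, where the median gene differed by 0.429. For *Top1* they were *Atp6v1d* (0.0402) and *Tmem184c* (0.0432), and for *Hipk2* *Prdm2* (0.0535) and *Sap130* (0.0583). *Crebbp* was nearest to *Fgd6* (0.0459) and *Mios* (0.0481), *Cdk9* to *Wipi2* (0.0216) and *Cap1* (0.0301), *Chd4* to *5830417I10Rik* (0.0228) and *Dclre1a* (0.0237), and *Prkdc* to *Vps13b* (0.0348) and *Cep41* (0.0418). For *Top1*, *Hipk2* and *Crebbp* the pattern shared is mostly that of the 1 high library.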

How the data were processed

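The authors sequenced paired-end RNA-Seq libraries and, per the labels and methods, aligned the reads with STAR (2.5.0a) to mm10 (GRCm38). They deposited raw HTSeq counts per gene symbol, not normalized. The annotation and strand setting of the counting are not given in the sources used here. Rows that name no gene held 21.2% to 33.3% of each library and were left out, and 18 symbols turned into dates in E6 before adhesion replicate 1 were restored from the same rows of the other files.

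The members and lists were chosen with earlier results of these data known. Counts were filtered with filterByExpr, scaled by TMM (factors 0.9377 to 1.0275) and fitted with edgeR 4.0.16 (R 4.3.3, quasi-likelihood test, 1 mean per condition, 8 libraries), with Benjamini-Hochberg FDR over all tested genes. DE mRNAs were those with FDR below 0.05 whose FC reached 1.5. SE values are the absolute log2 FC divided by the root of F, so they come from the test itself. CPM values are TMM-scaled, except the 3-count floors and the summed *Aire* and *Fezf2* levels with their limits, which use plain library totals. Log2 CPM used a prior count of 2. GENCODE vM21 matched 22740 symbols directly and 951 through older symbols, and *Supt16h* was counted as *Supt16*. The fit was also run on simulated counts drawn from its own estimate of the spread. No simulated library stood apart as WT after adhesion replicate 1 did, so that run cannot speak to such a library. *Cdk9*, *Chd4* and *Sirt1* overlap small or antisense RNAs in under 2% of their exon bases.

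Genes named are all members, *Hprt*, called genes of the lists (up to 3 each way), neighbours of *Aire* and *Fezf2*, the 2 genes nearest in pattern to each tested member (mean log2 CPM of at least 4) and markers that move with a result. *Cd80*, *Krt5*, *Cd74*, the partner subunits set beside the members per length, *Kpna1*, the tested regulators other than *Relb*, and *Maoa* were named after their values were seen. Alternatives were RLE factors, DESeq2 1.42.0, no filter on low counts, a replicate block, GC correction (lowess, span 0.3), culture time, subsets of libraries and no FC limit.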

Additional observations from a re-analysis of the deposited data

How the results depend on the processing

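The *Sirt1* call in E6 against WT, averaged, held under all 16 alternatives fitted, with log2 FC from -0.79 to -0.65. The averaged count of members called was 1, and became 2 with *Top1* when only libraries with 12 h of culture were kept, a fit whose spread rests on 1 pair of libraries, and it was 1 to 2 with each library left out. Before adhesion the count went from 0 to 1 under DESeq2, GC correction, GC correction with a replicate block and only the libraries of the contrast, and was 0 to 1 with each library left out. After adhesion it went from 1 to 3 with 12 h libraries, to 0 with only the libraries of the contrast, and was 0 to 3 with each library left out. For adhesion in WT it went from 0 to 3 with 12 h libraries, with 0 to 3 over the left-out libraries, and for the difference of the adhesion effects from 0 to 2, with 0 to 2. For adhesion averaged and in E6 it stayed at 0 throughout. Of the lists, 3 genes called in E6 became 5 with DESeq2, 11 with 12 h libraries, 8 without the FC limit and 1 to 10 with each library left out. For adhesion, 1 called gene became 2 with DESeq2, 2 with GC correction, 2 with GC correction and a replicate block, 6 with 12 h libraries and 0 without the filter, with a replicate block or with culture time as a covariate, and was 0 to 5 with each library left out. The 3, 10 and 11 called members or list genes arose where WT after adhesion was replicate 1 alone. The shares of all tested genes called moved with these counts. With 12 h libraries they were 21.7% averaged, 38.0% after adhesion, 30.9% for adhesion in WT and 26.3% for the difference, and without WT after adhesion replicate 2 they were 21.4%, 37.7%, 29.8% and 25.6%. With only the libraries of the contrast they were 13.1% before adhesion and 0% after adhesion. Under DESeq2 they were 7.2% before adhesion, 12.1% averaged and 2.89% for adhesion averaged. GC correction gave 7.7% before adhesion and 2.1% for adhesion averaged, and GC correction with a replicate block 6.43% and 1.55%. For adhesion averaged they were 1.04% without the filter, 1.19% with a replicate block and 1.06% with culture time. The share without the FC limit is not given here. The cause of these shifts was not tested.

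Replicate numbers do not pair the samples. The correlation of deviations was 0.223 between WT before and after adhesion and -0.073 to 0.022 for the other pairs. A replicate block left *Sirt1* at -0.74 and the count of members called at 1 in E6 against WT. Uncalled values changed sign in 35 of 757 comparisons. No called value turned direction. Where a library was left out, the lone sample of its condition was assumed to vary like the others. Depth limits *Aire* and *Fezf2*, which were fitted without the filter on low counts and not called there, and libraries with 2 per condition give no outlier test.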
